A study of Gallus gallus with 24 samples.

Results

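Liver transcripts of 4 D9 hatchlings were set against those of 4 E16 embryos, the oldest and the youngest of the 6 ages in a chicken series, so 8 of its 24 arrays are compared. All birds were recorded as males (testes seen at dissection) of Ross x Ross, a commercial meat-type broiler cross, and the values therefore describe 1 cross. The D9 hatchlings, taken on day 9 after hatch, had been vaccinated against Marek's disease virus as day-old chicks and had since had a starter ration ad libitum. The E16 embryos were taken in ovo on day 16 of incubation, before any feed, vaccine or light program. Age, feeding, vaccination, light and temperature therefore cannot be told apart in D9 vs. E16. Each array held the liver RNA of 1 bird, so the spread among 4 arrays is that among birds of an age. In RNA of a whole organ, fewer cells of a type and less RNA per cell cannot be told apart.

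Probe sets on the Chicken Genome Array were used if they are not Affymetrix controls, which left 38439. Of these, 27168 carry exactly 1 gene symbol and stand for 13009 genes. Values are log2 intensities after RMA (robust multi-array average), and where several probe sets stand for a gene, the values given are those of its brightest, judged by the mean of all 24 arrays. The log2 ratio is the D9 mean minus the E16 mean, so a positive ratio is higher at D9. A probe set was called a differentially expressed gene (DEG) at an adjusted p (limma, Benjamini and Hochberg over all 38439) of at most 0.05 and a log2 ratio of at least 0.75 in either direction. Levels under 4.43, the 25th percentile of probe set means, are called near background, and a ratio against such a level is a low estimate. Levels are compared between ages of 1 probe set, never between genes.

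The avian liver is the main site of fatty acid synthesis in the bird. An embryo lives on yolk lipid that the liver takes up, oxidizes and stores as cholesteryl ester, whereas a fed chick meets a diet rich in starch, which the liver turns into fat and exports in lipoproteins. The thyroid axis is activated around hatch, and growth hormone comes to act on the liver only later in life.

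Of the 8 arrays, D9 replicate 1 and E16 replicate 4 stood apart from the rest. Pearson's r over all probe sets lay between 0.990 and 0.992 among the D9 arrays and between 0.986 and 0.992 among the E16 arrays. Of 9 hepatocyte markers 0 were called, beside 12.8% of all genes, so the count of so short a list can show little. The summed linear level of the list ranged from 195740 to 208366 at D9 and from 189566 to 194038 at E16. Albumin (ALB) averaged 15.22 ± 0.03 at D9 and 15.23 ± 0.01 at E16 (SD, n = 4 each), at the top of the measured range. The W-linked HINTW lay between 5.30 and 5.52 on all 8 arrays, as against 12.17 on the library labelled E18 replicate 2, male, and this goes against its sex label. That array enters the shared spread, the choice of probe set, the E18 means and D3 vs. E18. On D9 replicate 1, 9 of 23 heart genes stood at least 1 above the 7 other arrays. NPPA, the atrial natriuretic peptide, had 8.11, 4.54, 4.56 and 4.38 in the D9 livers and at most 5.23 in any E16 liver. The 2 heart genes called higher, MYL4 (2.52) and LDB3 (1.56), had their highest value on D9 replicate 3. Without D9 replicate 1 there were 1590 DEGs instead of 1660, and 1525 of these had the same call. E16 replicate 4 had the lowest array weight in limma, 0.565, where the 7 others had 1.155 to 1.417. Without it there were 1582 DEGs (824 higher and 758 lower at D9), of which 1483 had the same call.

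Of 38439 probe sets 3191 were called (8.30%), 1493 higher (3.88%) and 1698 lower (4.42%). In all, 1660 of 13009 genes were DEGs, 12.8% of those tested. There were 817 higher at D9 (6.28%) and 843 lower at D9 (6.48%), and the median log2 ratio over all genes was -0.0016. Each list count below is to be read beside 6.28% higher and 6.48% lower. For 784 of the higher and 802 of the lower genes the 4 D9 arrays did not overlap the 4 E16 arrays; among all genes the D9 arrays lay wholly above for 15.8% and wholly below for 16.4%. The sizes were not symmetrical, since 79 genes were higher by a log2 ratio of at least 3 but only 32 were lower by as much. Of the 13009 genes, 25 were higher by at least 5 and 5 were lower by at least 5. Of the higher genes, 17 were near background on all 4 E16 arrays, and of the lower genes 14 were near background on all 4 D9 arrays. Of the 958 DEGs with several probe sets, 677 had probe sets that differ in their call.

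**Figure D1:**
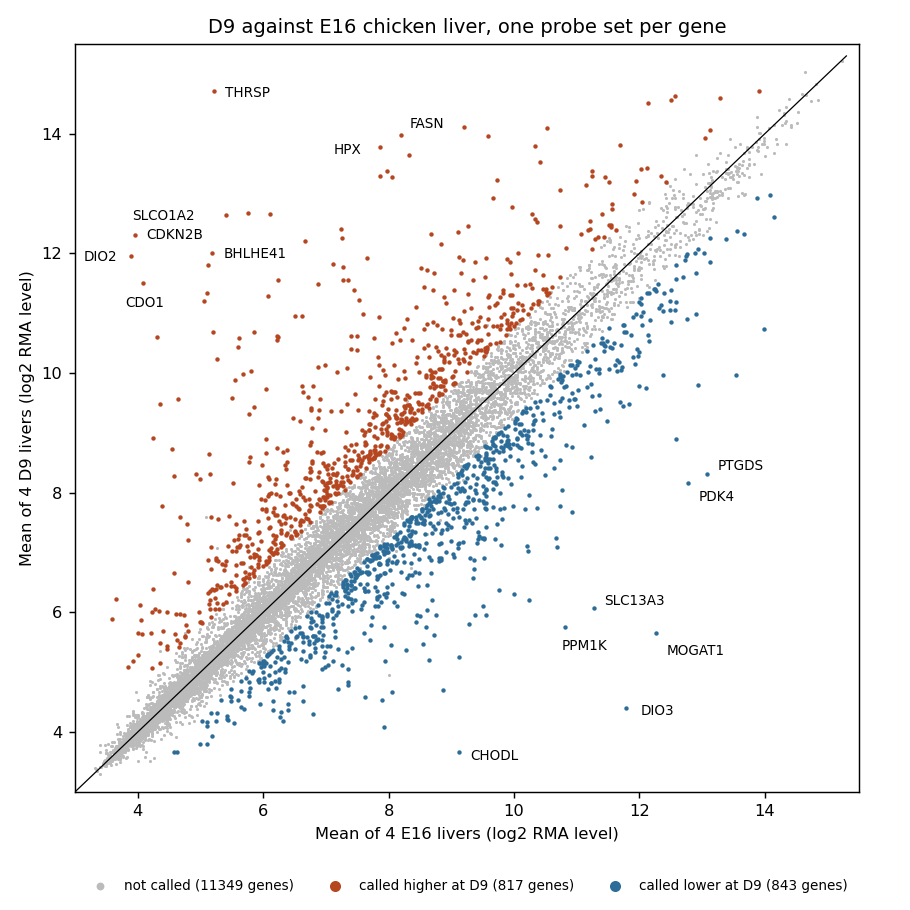
Each point is 1 gene, with the mean log2 RMA level of 4 D9 livers on the vertical axis and that of 4 E16 livers on the horizontal axis. Colours mark the 817 genes called higher and the 843 called lower at D9, and the line marks equal levels. The named genes are some of those far from the line, among them THRSP above it and DIO3 below it.

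The widest gap of any gene was in THRSP, the Spot 14 protein that promotes lipogenesis. It had 14.76, 14.63, 14.70 and 14.76 in the D9 livers, against 5.06, 5.32, 5.52 and 4.96 in the E16 livers. The groups are far apart, with a log2 ratio of 9.50 (95% interval 8.75 to 10.24, adjusted p = 6e-15), which is 723-fold. CDKN2B, which encodes the cell cycle inhibitor p15, had 12.35, 12.29, 12.15 and 12.42 at D9, against 3.97, 3.88, 4.07 and 3.92 at E16, so it was near background in every embryo and within a narrow band in every hatchling (ratio 8.34, adjusted p = 2.9e-15). DIO2, the deiodinase that activates thyroid hormone, had 12.18, 12.38, 10.82 and 12.45 at D9, against 3.57, 4.01, 3.96 and 4.05 at E16 (ratio 8.06, adjusted p = 6.8e-09). CDO1, the cysteine dioxygenase of taurine synthesis, had 11.33, 11.49, 11.64 and 11.52 at D9, against 4.13, 4.19, 3.85 and 4.20 at E16 (ratio 7.40, adjusted p = 2.9e-12). The remaining genes among the 20 highest fall mostly into groups described below. They include SLCO1A2 (7.23), AvBD8 (6.92), BHLHE41 (6.82), HKDC1 (6.68), C4A (6.56), HPX (5.91) and UCHL1 (5.49), a ubiquitin hydrolase best known from neurons. The other probe sets of UCHL1, near background at both ages, gave 0.09 and 0.16 and were not called.

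At the other end stood DIO3, the deiodinase that inactivates thyroid hormone. It had 4.46, 4.51, 4.43 and 4.21 in the D9 livers, all close to background, against 11.20, 12.34, 12.44 and 11.18 in the E16 livers (ratio -7.39, 95% interval -8.44 to -6.33, adjusted p = 2.9e-10). MOGAT1, a monoacylglycerol acyltransferase, had 5.66, 5.45, 6.23 and 5.26 at D9, against 12.52, 12.29, 12.12 and 12.12 at E16 (ratio -6.61). CHODL, a membrane lectin, had 3.62, 3.90, 3.61 and 3.52 at D9, against 9.01, 8.40, 9.32 and 9.79 at E16 (ratio -5.47). All 3 were separated by more than 4 log2 units between the nearest arrays of the ages. SLC13A3, a carrier of dicarboxylates (-5.20), PPM1K, the phosphatase that activates breakdown of branched-chain amino acids (-5.06), PTGDS, a prostaglandin D synthase and lipid carrier (-4.76), and PDK4, the kinase that shuts pyruvate dehydrogenase (-4.62), followed. Then came GNG4 (-4.17), the metallothioneins MT3 (-4.03) and MT4 (-3.70), UNC93A (-3.87) and TFPI (-3.84). The desmosomal PKP2 (-3.60), the ectonucleotidase ENTPD1 (-3.59) and the matrix protein POSTN (-3.42) were also among the 20 lowest. The call of ENTPD1 rests on its brightest probe set, since its others had ratios of 0.01, -0.17, -0.18 and -0.39, none called.

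**Figure D2:**
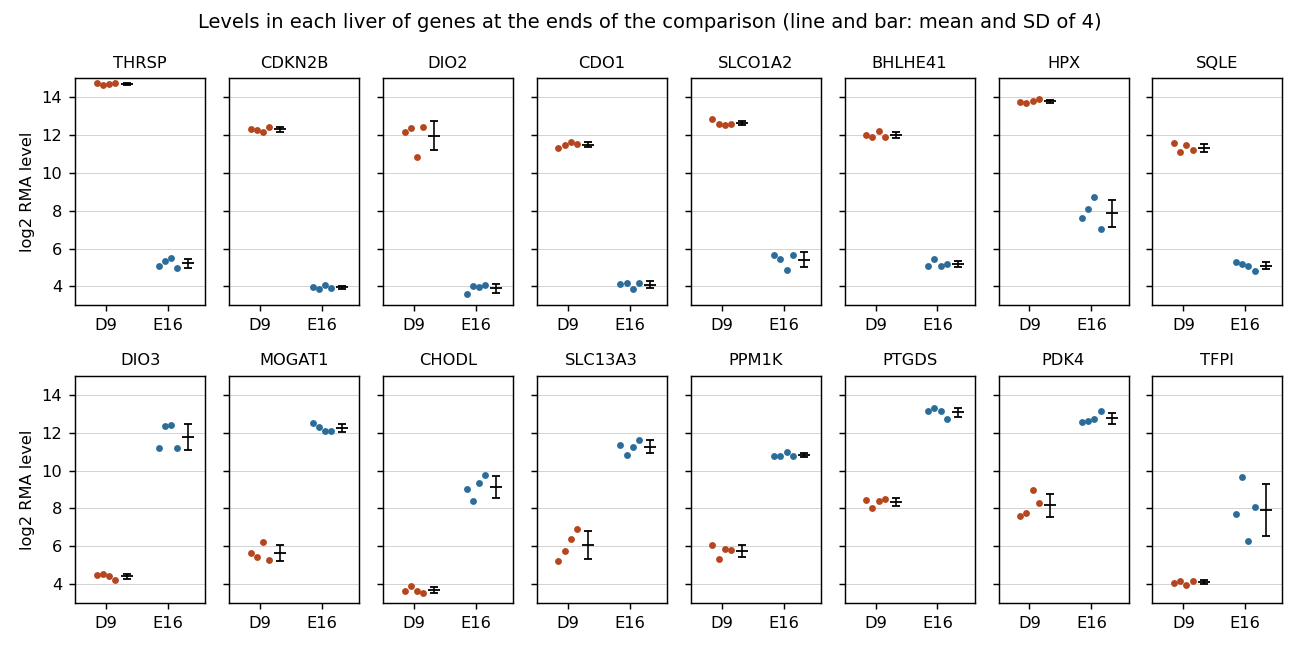
Log2 RMA level in each liver of 8 genes called higher at D9 (top row) and 8 called lower (bottom row), D9 to the left of E16, with the mean and SD of 4 livers beside the points. All 16 genes were drawn from DEGs without overlap, so the D9 livers lie wholly on one side of the E16 livers by selection. TFPI shows the widest spread, 7.71, 9.65, 6.29 and 8.07 among the E16 livers.

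Most genes of fatty acid synthesis were higher at D9. Of 20 measured, 13 rose and 0 fell, beside 6.28% and 6.48% of all genes, with a median log2 ratio of 4.31. FASN, the fatty acid synthase, had 13.98, 14.19, 13.86 and 13.89 at D9, against 8.36, 8.01, 8.30 and 8.08 at E16 (ratio 5.79, adjusted p = 1.1e-16). SCD, which places the first double bond, had 11.42, 11.22, 11.20 and 10.96 at D9, against 5.18, 5.17, 5.03 and 4.81 at E16 (ratio 6.15). Both were tight within each age. The enzymes that feed FASN also rose, with ACACA (acetyl-CoA carboxylase) at 4.28, ACLY (ATP citrate lyase) at 3.45 and ME1 (malic enzyme, a source of NADPH) at 4.38. Elongases and desaturases of long-chain fatty acids rose as much, with FADS2 at 6.31, FADS1 at 4.34, ELOVL5 at 5.40, ELOVL6 at 5.21 and ELOVL2 at 4.93. FADS2 varied more among hatchlings than most of these, 10.30, 11.47, 10.69 and 9.98, against 4.28, 4.26, 4.41 and 4.27 in the embryos, all near background. PNPLA3, a lipid droplet protein, rose by 5.42. SREBF1, whose product switches on many of these genes in mammals, was not called, with 6.72 ± 0.15 at D9 and 6.27 ± 0.16 at E16 (ratio 0.45, adjusted p = 0.0115), although its D9 arrays lay above all E16 arrays. ACACB, PKLR and PGD were not called either, with ratios of 0.05, 0.01 and 0.38.

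The steps that follow, from fatty acid to stored fat, moved in both directions. Of 20 genes of acylglycerol synthesis and lipid droplets, 8 rose and 3 fell (median 0.28). GPAM, the first acyltransferase of glycerolipid synthesis, averaged 10.99 ± 0.12 at D9 and 7.59 ± 0.16 at E16 (ratio 3.39). AGPAT2 (2.84) and the phosphatase LPIN1 (2.91), which carry out the next steps, rose too, as did the droplet coat protein PLIN2 (3.49). Those that fell were MOGAT1, AGPAT3 (-1.62) and GPAT3 (-1.43), so different members of the same acyltransferase families moved in opposite directions. DGAT2, which adds the last fatty acid, was not called (7.30 ± 0.09 at D9 and 7.40 ± 0.18 at E16).

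The cholesterol pathway was called more completely than any other list. Of 15 measured genes 14 rose and 0 fell, with a median ratio of 4.40. SQLE, which commits squalene to sterols, had 11.56, 11.11, 11.49 and 11.22 at D9, against 5.31, 5.16, 5.09 and 4.83 at E16 (ratio 6.25, adjusted p = 1.4e-16). In pathway order, the gain was 5.0 for HMGCS1, 4.20 for FDPS, 4.50 for FDFT1, 5.33 for LSS, 5.32 for MSMO1, 5.54 for NSDHL, 4.40 for HSD17B7 and 4.97 for DHCR7. MVK, the mevalonate kinase, gained less (1.23). CYP51A1, the lanosterol demethylase, missed the ratio limit, with 5.73, 5.63, 5.56 and 5.38 at D9, against 5.32, 5.05, 5.02 and 5.10 at E16 (ratio 0.46, 95% interval 0.22 to 0.69), and its levels were low at both ages. Of 14 genes of sterol sensing and uptake 6 rose and 0 fell (median 0.63), among them SREBF2 (10.02 ± 0.26 at D9 and 7.17 ± 0.43 at E16, ratio 2.85), the transcription factor of the pathway, STARD4 (4.71), a sterol carrier, and the lysosomal LIPA (1.36) and NPC1 (1.02). INSIG1, which holds the SREBPs back, had a ratio of 0.74, just under the limit (adjusted p = 0.011). It passed the limit without D9 replicate 1 (0.79), D9 replicate 4 (0.80), E16 replicate 1 (0.80) or E16 replicate 3 (0.76), and its probe set of largest variance gave 1.52.

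Of 24 measured genes of bile acid synthesis and transport 7 rose and 3 fell (median 0.04). CYP7A1, the rate-limiting enzyme of bile acid synthesis, had 10.57, 8.54, 8.17 and 8.42 at D9, against 4.35, 4.25, 4.17 and 4.19 at E16. All 4 embryos were near background, and D9 replicate 1, the array with heart transcripts, stood above the other hatchlings (ratio 4.69, adjusted p = 3.8e-06). SLCO1A2, an uptake carrier, rose most, with 12.84, 12.60, 12.54 and 12.58 at D9, against 5.64, 5.47, 4.84 and 5.68 at E16 (ratio 7.23), and both subunits of the exporter OST rose, SLC51A by 4.62 and SLC51B by 3.16. The bile salt exporter ABCB11 was not called (0.71), but passed the limit without D9 replicate 4 (0.94) or E16 replicate 4 (0.83). The 3 that fell were NR1H4, the bile acid receptor FXR (-1.44), FGF19, the hormone that represses CYP7A1 in mammals (-1.87), and its co-receptor KLB (-0.91). FGF19 had 5.16, 4.87, 5.63 and 4.58 at D9, against 7.68, 7.42, 7.38 and 5.25 at E16, where replicate 4 lay at the level of the hatchlings. CYP8B1 (-0.38), BAAT (0.43) and NR0B2 (-0.07) were not called.

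Genes of fatty acid oxidation fell more often than they rose. Of 32 genes of oxidation and ketone bodies, 14 fell and 3 rose, with a median of -0.38. PDK4 had 7.61, 7.76, 8.98 and 8.27 at D9, against 12.56, 12.60, 12.75 and 13.18 at E16 (ratio -4.62, adjusted p = 5e-13). The coactivator PPARGC1A had 6.51, 6.54, 6.61 and 6.63 at D9, against 9.67, 9.35, 9.03 and 9.34 at E16 (ratio -2.77). CPT1A, which admits fatty acids to the mitochondrion, averaged 6.21 ± 0.50 at D9 and 8.69 ± 0.35 at E16 (ratio -2.48). SLC22A5, the carnitine carrier (-1.65), CROT (-1.60), ETFDH (-1.47), HADHB (-1.35) and EHHADH (-0.96) fell as well. PPARA, the nuclear receptor that drives these genes in mammals, was not called by its brightest probe set (-0.42, adjusted p = 0.117). Of its weaker probe sets, that with -1.27 was called lower and that with -0.62 was not called. Among the 3 genes of this list that rose were the nuclear receptors PPARG (1.27), best known for fat storage, and PPARD (0.81). Of 66 genes of the respiratory chain and ATP synthase 2 fell and 0 rose, a share under that of all genes. The list still leaned lower, with 57 negative ratios and a median of -0.23. Its mean level was 11.04 to 11.11 in the D9 livers and 11.22 to 11.42 in the E16 livers.

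Carriers of lipid in cells and plasma did not move as 1 group. Of 28, 8 rose and 5 fell (median -0.02). The intracellular fatty acid binding proteins FABP1 (14.11 ± 0.15 at D9 and 9.20 ± 0.78 at E16, ratio 4.91), FABP7 (3.12) and LBFABP, the basic liver form of birds (2.37), rose. APOA4 (3.58), the lipoprotein assembly factor MTTP (1.30) and the endothelial lipase LIPG (2.70) also rose. LPL, lipoprotein lipase, fell, with 7.36, 7.53, 7.07 and 6.97 at D9, against 9.63, 9.47, 9.80 and 9.18 at E16 (ratio -2.29), as did hepatic lipase LIPC (-2.35). APOA1 (0.40) and APOB (-0.08) were not called, although weaker probe sets of APOB gave ratios of -1.36 and -1.87, both called.

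Genes of sugar metabolism moved in both directions, and most were not called. HKDC1, a hexokinase, had 11.76, 11.38, 11.97 and 12.10 at D9, against 4.93, 5.50, 5.15 and 4.91 at E16, a ratio of 6.68, whereas HK1 and HK2 were not called (-0.44 and -0.07). Of 31 genes of glycolysis and hexose carriers 6 rose (19.4%) and 3 fell (9.68%), beside 6.28% and 6.48% of all genes (median 0.02). KHK, which phosphorylates fructose, rose by 1.70 and the carrier annotated SLC2A14 by 2.03. LDHB fell, to 12.60 ± 0.32 at D9, against 14.15 ± 0.06 at E16, while LDHA was not called (0.37). PFKFB1, which sets the level of fructose 2,6-bisphosphate, is uncertain. Its probe set of highest mean had a ratio of -2.20, but its 5 probe sets ranged from -2.86 to 2.71, and it was the 1 DEG with probe sets called in both directions. Of 22 genes of gluconeogenesis and glycogen 6 rose (27.3%) and 3 fell (13.6%), with a median of 0.07. UGP2, which makes UDP-glucose, rose by 2.12, the glycogen branching enzyme GBE1 by 1.51 and the glycogen-targeting subunit PPP1R3B by 1.68. G6PC2 fell by 2.04, while G6PC (0.06) and PYGL (0.37) were not called. PCK1, the cytosolic enzyme of gluconeogenesis, had 9.62, 11.53, 11.24 and 10.52 at D9, against 9.71, 7.41, 9.30 and 8.96 at E16. The ages overlapped, and its call (ratio 1.88, adjusted p = 0.0459) did not hold with the hybridization day as a block (adjusted p = 0.055). Nor did it hold when any of 6 single arrays was left out. Without E16 replicate 2 the ratio was 1.40 (adjusted p = 0.18), and the others were D9 replicates 2 (1.61), 3 (1.71) and 4 (1.95) and E16 replicates 3 (2.03) and 4 (1.92).

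Breakdown of amino acids was mostly lower at D9. Of 58 genes 23 fell and 7 rose, with a median of -0.30. Among the genes that fell were several of branched-chain breakdown. PPM1K had 6.07, 5.30, 5.85 and 5.81 at D9, against 10.78, 10.79, 10.96 and 10.76 at E16 (ratio -5.06), and BCKDHB (-2.29), DBT (-1.25), MCCC1 (-1.93), MCCC2 (-1.91) and IVD (-1.56) fell with it. Enzymes of lysine (AASS, -2.47), tryptophan (KYNU, -1.92) and transsulfuration (CTH, -1.87, and CBS, -1.20) fell too. Against these, CDO1 rose by 7.40, AFMID (kynurenine formamidase) by 5.20, GLDC (glycine cleavage) by 2.69 and ASS1 (argininosuccinate synthase) by 2.30. AFMID had 11.46, 11.27, 11.43 and 10.94 at D9, against 6.39, 5.99, 5.95 and 5.98 at E16. CPS1 was not called (-0.28). Birds excrete nitrogen as uric acid, and XDH, xanthine dehydrogenase, which forms it, had 9.69, 9.62, 10.29 and 9.30 at D9, against 6.58, 5.74, 5.81 and 6.08 at E16 (ratio 3.67, adjusted p = 4.5e-10). PPAT (1.33) and PAICS (1.26), early enzymes of purine synthesis, also rose, so that 4 of 19 genes of this group rose and 1 fell. The second probe set of PAICS had a ratio of -0.72. Among 38 amino acid and related carriers 6 fell (15.8%) and 2 rose (5.26%), beside 6.48% and 6.28% of all genes. SLC1A4 (-2.54) and the arginine carrier SLC7A2 (-2.19) were among the lower ones.

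**Figure D3:**
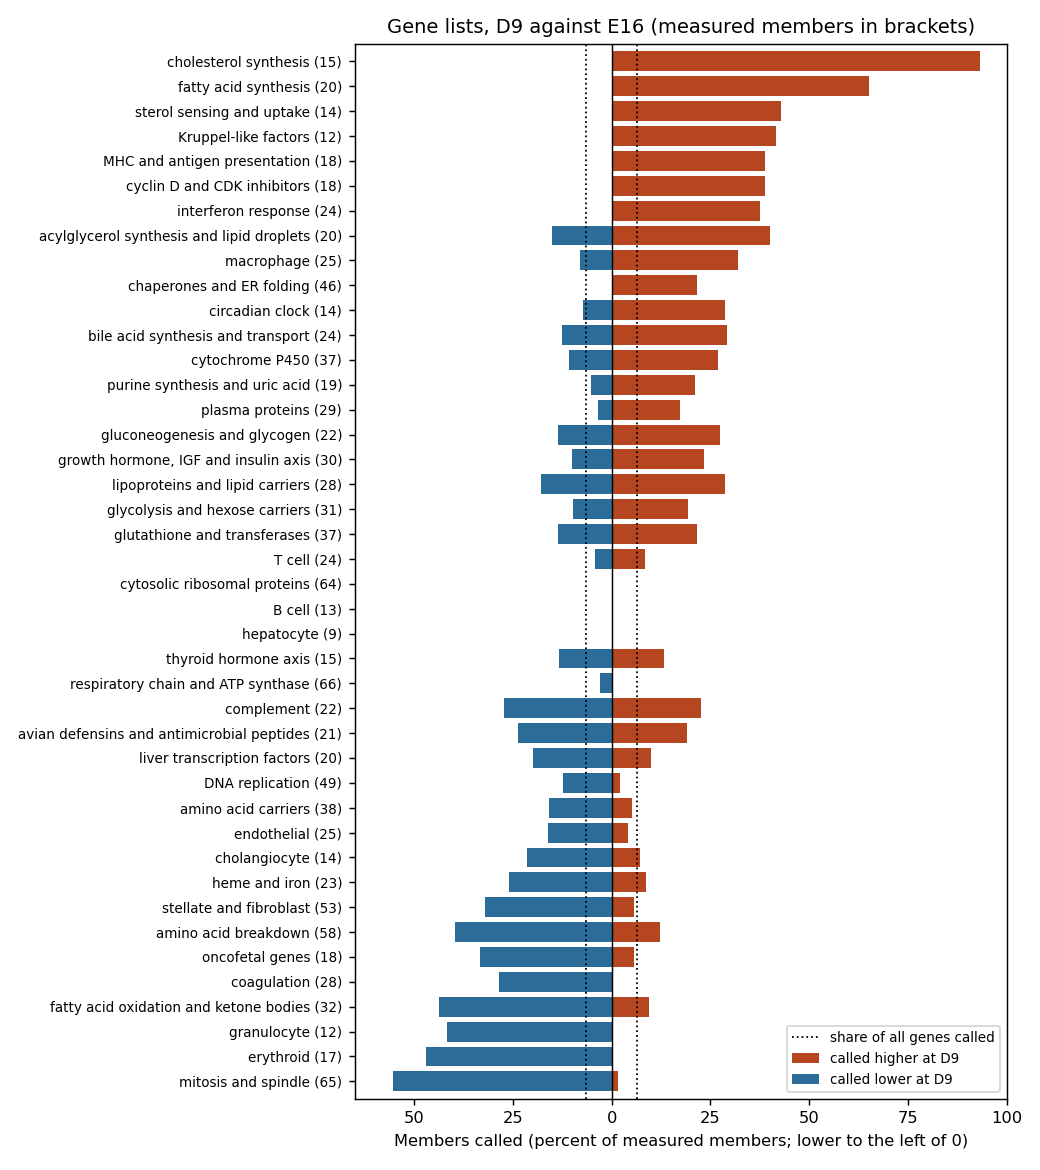
Percent of the measured members of each list that were called higher (right of 0) or lower (left of 0) at D9, for the pathway and cell type lists with at least 9 measured members. Dotted lines mark the 6.28% and 6.48% of all genes, and the number of measured members is in brackets. Cholesterol synthesis lies at the top with 14 of 15 higher, and mitosis and spindle at the bottom with 36 of 65 lower. Lists share some members.

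In the thyroid axis DIO2 and DIO3 moved in opposite directions, while the receptors were not called. DIO2 was higher in every hatchling and DIO3 in every embryo, by selection, since both were drawn from DEGs without overlap. DIO1, which does both jobs, had 11.31, 11.22, 11.38 and 11.36 at D9, against 11.46, 11.59, 11.31 and 11.80 at E16 (ratio -0.22, limma adjusted p = 0.15). Between E18 and E20 the mean of DIO2 changed by 5.61 and that of DIO3 by -3.81. THRA (0.10) and THRB (0.27) were not called. KLF9, a target of thyroid hormone in several species, had 8.16, 7.76, 8.83 and 8.48 at D9, against 4.76, 5.17, 5.68 and 4.98 at E16 (ratio 3.16). It was 1 of 5 Kruppel-like factors of 12 that rose, with KLF13 (2.61), KLF10 (2.14), KLF6 (1.28) and KLF11 (1.13); 0 fell.

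In the growth hormone and IGF axis IGF1 moved late. It had 6.60, 6.31, 5.46 and 6.13 at D9, against 4.07, 3.92, 4.24 and 3.93 at E16 (ratio 2.08, adjusted p = 1.3e-09). Its means of 4.22 (E18), 4.28 (E20), 4.03 (D1) and 4.22 (D3) were near background, so it left background only between D3 and D9. IGFALS, which holds IGFs in plasma, rose by 2.85, and the cytokine feedback genes SOCS3 (2.12) and CISH (1.82) rose too. IGFBP2 fell, averaging 7.22 ± 0.21 at D9 and 9.42 ± 0.61 at E16 without overlap (ratio -2.19), and IGFBP1 fell by 1.34. GHR (-0.48), INSR (-0.46) and IGF2 (-0.08) were not called. In all, 7 of 30 genes rose and 3 fell. BHLHE41, a repressor in the circadian clock, had 12.03, 11.89, 12.21 and 11.91 at D9, against 5.08, 5.43, 5.06 and 5.17 at E16 (ratio 6.82), and the core genes ARNTL (-0.11) and PER2 (-0.02) were not called. Of 14 clock genes 4 rose (28.6%) and 1 fell (7.14%). CLOCK rose by 1.15 and CRY2 by 0.89, although weaker probe sets of CRY2 (0.46 and 0.69) were not called. PER3 was also called higher, but its call was lost when any single array was left out, with ratios of 0.60 to 0.81. The hour of sampling is not given in the sources used here.

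Secreted proteins changed by class. Of 29 plasma proteins 5 rose (17.2%) and 1 fell (3.45%), beside 6.28% and 6.48% of all genes (median 0.03). HPX, hemopexin, which binds free heme, had 13.73, 13.69, 13.80 and 13.91 at D9, against 7.61, 8.09, 8.74 and 7.05 at E16 (ratio 5.91, adjusted p = 9.2e-10). ITIH3 (3.26), the copper carrier CP (2.75), ORM1 (1.31) and PIT54, the haptoglobin substitute of birds (1.30), also rose, whereas ALB, TTR (0.19) and TF (-0.18) were not called. A weaker probe set of TTR was called higher (0.90). Weaker probe sets of CP gave 2.11, called, and -0.62, 0.24 and -0.22, not called. In coagulation 8 of 28 fell and 0 rose (median -0.27). TFPI, an inhibitor of clotting, fell most, with 4.03, 4.16, 3.97 and 4.18 at D9, all near background, against 7.71, 9.65, 6.29 and 8.07 at E16. The factors F2 (-0.87), F7 (-0.89), F13B (-1.03), KLKB1 (-1.36) and the anticoagulants PROC (-0.83) and PROZ (-1.21) fell by less. Complement was split, with 5 of 22 higher and 6 lower. C4A had 12.80, 12.72, 12.64 and 12.50 at D9, against 5.66, 5.68, 6.25 and 6.85 at E16 (ratio 6.56), and C6 (1.86) and C1S (1.40) rose, while the lectins COLEC12 (-1.83) and MBL2 (-1.14) and the protease MASP2 (-1.16) fell. The second probe set of C4A had a ratio of 0.18 and was not called.

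Enzymes that handle foreign compounds and oxidants also differed. Among 37 cytochrome P450 genes (with their reductase) 10 rose (27.0%) and 4 fell (10.8%), beside 6.28% and 6.48% of all genes. CYP2W2 (2.39), CYP2C23a (2.34) and CYP1A2 (2.03) rose, and CYP1B1 fell (-1.91). Weaker probe sets of CYP1A2 (0.10 and 0.26) and CYP2C23a (0.05) were not called. GSTA4, a glutathione transferase, had 11.31, 10.78, 11.19 and 11.60 at D9, against 7.45, 7.41, 7.31 and 7.91 at E16 (ratio 3.70), and GCLC, which makes the precursor of glutathione, rose by 3.00 while its partner subunit GCLM was not called (0.44). The plasma glutathione peroxidase GPX3 rose by 2.81, and GPX1 was not called (-0.11). MT3 had 6.21, 5.77, 6.40 and 6.44 at D9, against 10.23, 10.52, 9.53 and 10.67 at E16, and MT4 8.71, 8.43, 8.99 and 9.42 at D9, against 12.80, 13.05, 11.68 and 12.82 at E16. In both metallothioneins every hatchling lay below every embryo. Among 23 genes of heme and iron 6 fell and 2 rose, with BLVRA (-1.62) and the exporter SLC40A1 (-1.30) among the lower. Of 46 chaperones 10 rose and 0 fell, led by HERPUD1 (1.69), HSPH1 (1.63) and SDF2L1 (1.31), and of 64 cytosolic ribosomal proteins 0 were called in either direction. The ribosomal list still leaned slightly lower, with 56 negative ratios and a median of -0.17.

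Of 65 genes of mitosis and spindle 36 fell and 1 rose, with a median of -0.83 and 62 negative ratios. CKS2, a subunit of the mitotic kinase complex, had 6.44, 5.88, 6.74 and 6.82 at D9, against 7.91, 7.97, 7.53 and 8.81 at E16 (ratio -1.59, adjusted p = 9.4e-05). INCENP (-1.68), BUB1B (-1.54), CDC20 (-1.50), AURKB (-1.33) and PLK1 (-1.16) fell as well, and BUB1 rose (1.34). MKI67 was not called (-0.66, adjusted p = 0.0353), but passed the limit without D9 replicate 3 (-0.85) or E16 replicate 2 (-0.77). Among 49 genes of DNA replication 6 fell (12.2%, beside 6.48% of all genes) and 1 rose, with a median of -0.25 and 34 negative ratios. MCM2 and PCNA had ratios of 0.01 and -0.07. RRM2, a subunit of ribonucleotide reductase, went the other way, with 10.26, 10.46, 10.70 and 9.79 at D9, against 9.54, 9.56, 9.36 and 9.79 at E16 (ratio 0.74, just under the limit, and 0.91 without D9 replicate 4). Among cyclin D genes and cell cycle inhibitors 7 of 18 rose and 0 fell. CDKN2A had 8.51, 7.30, 9.13 and 8.30 at D9, against 5.09, 4.91, 5.11 and 4.62 at E16 (ratio 3.38), GADD45G rose by 4.46, RB1 by 1.71 and BTG2 by 1.70. CCND1 was not called (-0.07). Genes listed as oncofetal fell in 6 of 18 cases and rose in 1, with PLAG1 (-1.81) and IGF2BP3 (-1.28) lower and SALL1 (1.56) higher. The list's FBLN1 (-2.03), also lower, was placed by the study among components of the extracellular matrix. AFP (0.13), LIN28B (-0.08) and GPC3 (-0.05) were low at both ages on the array and not called.

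In antigen presentation 7 of 18 measured genes rose and 0 fell (median 0.39). BLB1, a class II beta chain, had 11.85, 12.11, 12.55 and 12.08 at D9, against 9.05, 9.12, 8.54 and 8.62 at E16 (ratio 3.32), CD74, the invariant chain, had 12.50, 12.62, 12.70 and 12.79 at D9, against 10.31, 10.55, 10.07 and 10.24 at E16 (ratio 2.36), and B2M of class I rose by 2.05. Their regulator CIITA was not called (0.09). The interferon list had 9 of 24 higher and 0 lower, with IFI27L2 (4.26) well ahead of IRF1 (1.37) and IFIH1 (1.29), while MX1 was not called (0.28). Markers of macrophages moved in the same direction: 8 of 25 rose and 2 fell, and the summed level of the list was 26373 to 34218 at D9 and 16497 to 20170 at E16. C1QA (1.67), C1QB (1.13), C1QC (1.25) and MARCO (1.13) rose, and CD74 stands in both lists. Of T cell markers 2 of 24 rose, CD3D (7.49, 7.41, 7.60 and 7.63 at D9, against 6.13, 6.38, 5.40 and 5.74 at E16) and CD3E (1.19), and 1 fell, CD99. The share that rose, 8.33%, is close to the 6.28% of all genes. The summed level of the T cell list was 1592 to 1813 at D9 and at least 1864 at E16, although most of its members had positive ratios. Bright members weigh most in such a sum. CD99 had 8.70, 8.73, 9.05 and 8.74 at D9, against 9.72, 10.05, 9.92 and 10.50 at E16. By mean log2 level the list lay at 5.36 to 5.49 at D9 and 5.18 to 5.31 at E16. The sum therefore does not show less T cell RNA at D9. Of 13 B cell markers 0 were called by limma. The part of these cells in the change of antigen presentation was not tested.

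Some markers of other cell types fell. Of 17 erythroid markers 8 fell and 0 rose (median -0.67), with RHAG (-1.81), RHCE (-1.40) and CA2 (-1.22) among them, and the summed level was 30298 to 36137 at D9 and 44915 to 48865 at E16. Of 53 stellate cell and fibroblast genes 17 fell and 3 rose (median -0.39). POSTN had 7.83, 6.86, 6.33 and 7.97 at D9, against 10.67, 10.31, 10.56 and 11.14 at E16 (ratio -3.42), and LAMB1 (-2.30), COL14A1 (-2.25) and COL1A1 (-1.48) fell, while COL3A1 (-0.35) was not called. The myofibroblast actin ACTA2 was not called either (-0.12), but its means were near background at both ages (4.28 at D9 and 4.40 at E16), so it can show little. Endothelial markers fell in 4 of 25 cases and rose in 1. Of 14 cholangiocyte genes EPCAM (-1.56), PROM1 (-1.79) and AQP1 (-1.20) fell and TSPAN8 (1.58) rose. These were 21.4% and 7.14% of the list, beside 6.48% and 6.28% of all genes. The list as a whole was evenly divided, with 7 positive and 7 negative ratios.

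Granulocyte genes differed among the embryos as well as between the ages. Of 12 measured 5 fell and 0 rose (median -0.73). CATH1, a cathelicidin of heterophils, had 6.17, 7.03, 7.94 and 7.39 at D9, against 10.71, 10.74, 9.29 and 8.42 at E16 (ratio -2.66, adjusted p = 0.00069). AvBD1, an avian beta-defensin, had 5.93, 7.34, 7.88 and 7.83 at D9, against 10.49, 10.25, 9.02 and 8.33 at E16, and LECT2 had 5.99, 7.20, 7.94 and 7.82 at D9, against 10.47, 10.39, 8.77 and 8.33 at E16. In all 3, and in AvBD7 (-2.03) and DEFB4A (-1.75), E16 replicates 1 and 2 were the highest, E16 replicates 3 and 4 lay closer to the hatchlings, and D9 replicate 1 was the lowest. The summed level was 787 to 1643 at D9 and 1933 to 7211 at E16. By mean log2 level the list lay at 5.86 to 6.70 at D9 and 6.65 to 7.87 at E16, so the ages overlapped. The calls of AvBD7 and LECT2 were lost when only the 8 arrays were fitted with the hybridization day as a block (adjusted p = 0.051 for each). AvBD7 was also lost without D9 replicate 1 (-1.77) or 2 (-1.94) and without E16 replicate 1 (-1.74) or 2 (-1.70). A defensin outside this pattern was AvBD8, with 12.51, 12.52, 12.70 and 12.95 at D9, against 5.23, 5.87, 6.24 and 5.66 at E16 (ratio 6.92), and the liver-expressed peptide LEAP2 rose by 2.12.

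**Figure D4:**
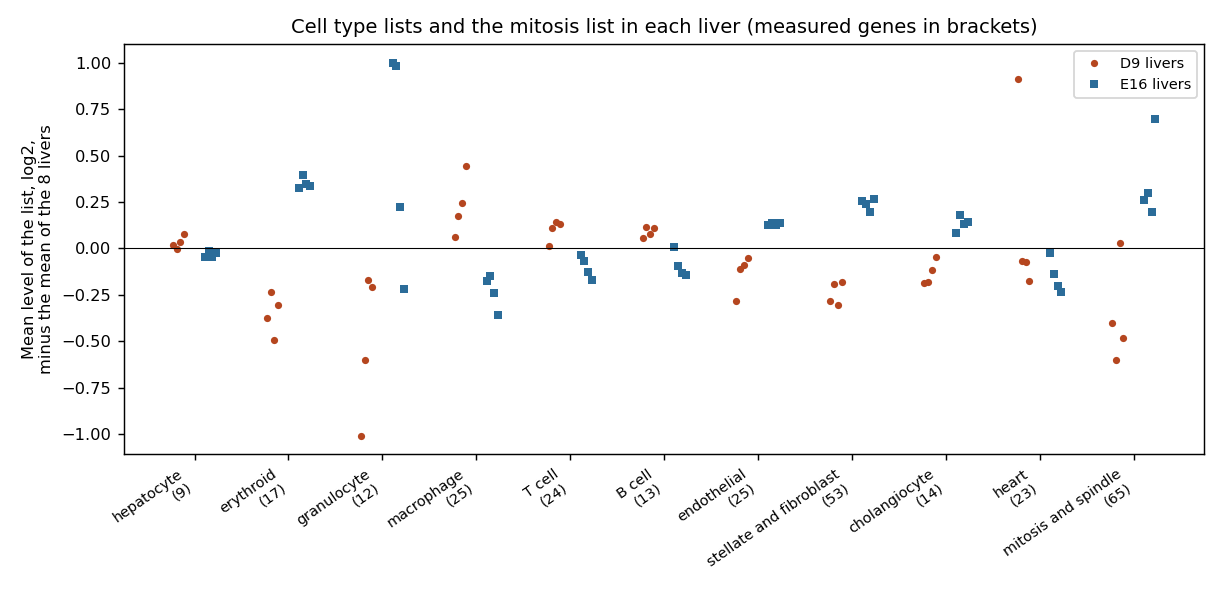
Mean log2 level of each list in each liver minus the mean of the 8 livers, D9 to the left of E16, replicates 1 to 4 from left to right. Erythroid, endothelial, stellate, cholangiocyte and mitosis lists lie lower in all D9 livers than in all E16 livers, the macrophage, T cell and B cell lists higher, E16 replicates 1 and 2 stand high for granulocytes, and D9 replicate 1 stands apart for heart.

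The course over the 6 ages shows when the D9 vs. E16 differences arose. For 318 of the 817 higher genes the largest single step was D1 to D3, for 202 E18 to E20, for 144 E20 to D1, for 120 D3 to D9 and for 33 E16 to E18. Among the 843 lower genes the largest step was E20 to D1 for 240, D1 to D3 for 219, E18 to E20 for 176, D3 to D9 for 117 and E16 to E18 for 91. By D3, 85.4% of the higher and 85.5% of the lower genes had come within 0.75 of their D9 level. This window is wide beside the median ratios of 1.22 and -1.13, so a gene inside it need not have completed its change. At D1, 63.6% of the higher and 54.6% of the lower genes were within 0.75 of their E16 level. Few courses were steady, since all 5 steps ran in the same direction in 67 of the higher and 80 of the lower genes. Without E18 replicate 2 the largest step was E16 to E18 for 29 higher and 73 lower genes and E18 to E20 for 206 higher and 192 lower genes. The lipogenic genes shifted most between the unfed D1 and the fed D3 hatchlings: the list's median step was -0.09 from E16 to E18, 0.02 to E20, 0.38 to D1, 2.65 to D3 and 0.25 to D9, and that of cholesterol synthesis was 0.03, -0.01, 0.38, 2.98 and 0.62 over the same steps. THRSP had begun to move by D1, with means of 5.23 at E20, 8.33 at D1 and 14.36 at D3. HMGCS1 moved earlier than the median of its list, with 6.92 at E18 and 10.70 already at E20. MOGAT1, in the other direction, averaged 11.44 at E20, 8.10 at D1 and 6.17 at D3.

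**Figure D5:**
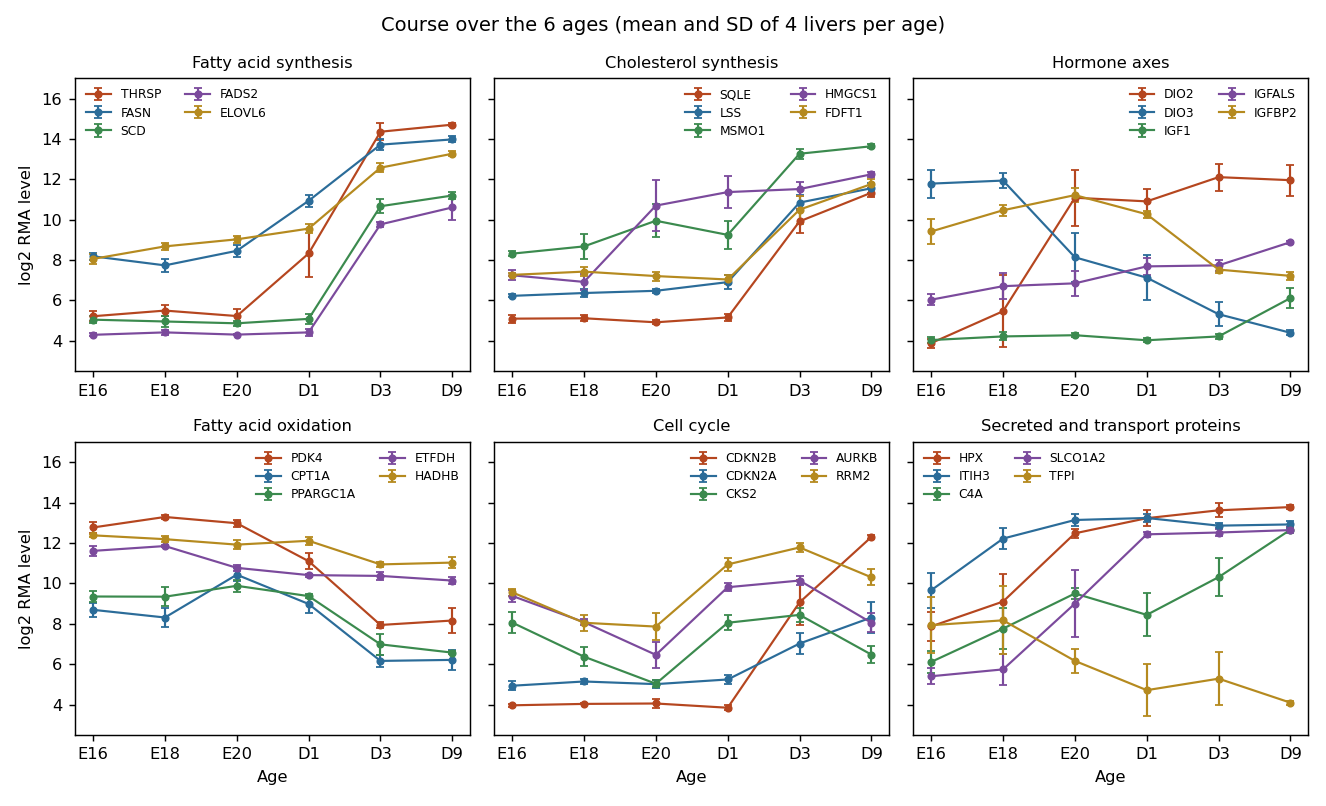
Mean log2 RMA level at each of the 6 ages with the SD of 4 livers, 5 genes in each of 6 panels. CDKN2B, SQLE and FADS2 stay flat to D1 and climb by D3, DIO2 climbs and DIO3 drops from E18 to E20, IGF1 climbs only at D9, and CKS2, AURKB and RRM2 dip at E18 and E20 and peak at D3.

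A comparison that shares no array with this one, D3 vs. E18, includes the library labelled E18 replicate 2. The E18 and E20 arrays are so named by title and source, while their developmental stage field reads E16. D3 vs. E18 called 4065 of 38439 probe sets (10.6%, with 6.39% higher and 4.19% lower) and 2219 of 13009 genes (17.1%), 1434 higher at D3 (11.0%) and 785 lower (6.03%). Of the 817 genes higher in D9 vs. E16, 532 were also higher in D3 vs. E18, which is 65.1% of the first list and 37.1% of the second. Of the 843 lower genes 503 were also lower, 59.7% of the first list and 64.1% of the second. The pathways of lipid synthesis had the same direction in both, with 15 of 20 genes of fatty acid synthesis and 12 of 15 of cholesterol synthesis higher at D3 than at E18. Mitosis did not. In D3 vs. E18, 54 of the 65 genes were higher and 0 lower, and of the 36 genes lower in D9 vs. E16, 35 were called in the opposite direction. Without E18 replicate 2, 2269 genes were called in D3 vs. E18 (1451 higher and 818 lower, 2097 with the same call), 535 were higher and 514 lower in both comparisons, and 53 of the mitosis genes were higher and 0 lower, 33 of them against their D9 vs. E16 call. The means of CKS2 over the ages were 8.06 (E16), 6.37 (E18), 5.03 (E20), 8.05 (D1), 8.44 (D3) and 6.47 (D9). The list's median step was -0.96 from E16 to E18, -0.71 to E20, 2.07 to D1, 0.27 to D3 and -1.41 to D9, so the lower level at D9 is the end of a course that fell, rose and fell again.

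Only 4 genes went the opposite way to this, higher at D9 than at E16 and lower at D3 than at E18. They are TTPA, the vitamin E transfer protein (1.41 and -1.68), LOC771012 (1.39 and -0.81), the class I chain BF2 (1.25 and -1.0) and AvBD13 (1.05 and -1.62), the ratio of D9 vs. E16 given first for each. All 4 were singled out after their values were seen, and without E18 replicate 2 the D3 vs. E18 ratio of BF2 was no longer called (-0.79). The D9 vs. E16 call of BF2 rests on 1 of its 4 probe sets, since the others had ratios of 0.36, 0.16 and -0.01. The call of AvBD13 in D9 vs. E16 rests on arrays that overlap, 10.90, 10.81, 10.85 and 10.55 at D9 and 9.20, 9.26, 10.74 and 9.73 at E16. It was lost when any array but E16 replicate 3 was left out, with ratios of 0.87 to 1.12. TTPA had 9.32, 9.44, 9.66 and 9.18 at D9, against 7.75, 8.20, 8.08 and 7.95 at E16, without overlap.

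Some differences were not called in D3 vs. E18. LOC418813, a feather keratin gene, had 5.28, 5.48, 5.54 and 5.59 at D9, against 6.48, 8.95, 8.58 and 10.21 at E16 (ratio -3.08), and its mean was already 5.80 at E18. E16 replicate 1 was the lowest embryo and E16 replicate 4 the highest. Only 5 of 19 genes listed for feather and skin were matched to a probe set by symbol, and of the 4 others (KRT5, KRT14, KRT75 and KRT80) 0 were called. The study reported several feather keratin probe sets of this array higher at E16 than at E18, so this list does not show whether LOC418813 stood alone. Outside the list, LOC107055128 (8.43 at E16 and 6.02 at E18), LOC769121 (8.45 and 6.17) and JAC1 (8.08 and 6.23) had a similar early fall. A weaker probe set of LOC107055128 (-0.28) was not called. These genes were chosen after their values were seen, and whether they are feather keratins was not tested. Among the genes with a D3 vs. E18 ratio inside the limit, the doublecortin gene DCX (4.35, 4.40, 4.32 and 4.25 at D9, against 6.54, 6.58, 5.78 and 6.27 at E16) and APCDD1L (-2.55) were likewise down by E18, at 4.79 and 5.16. At the upper end ITIH3 was up by E18 (9.66 at E16, 12.22 at E18 and 12.92 at D9). IGF1, FGF23 (1.77) and GPATCH4 (2.06) instead changed mostly after D3. Not being called does not mean that a gene stayed level between E18 and D3. The D3 vs. E18 ratios of FGF23 (0.73, limma adjusted p = 0.00032), GPATCH4 (0.54, 0.0319) and DCX (-0.49, 0.0111) missed only the ratio limit. Those of LOC418813 (-0.31, 0.633), APCDD1L (-0.22, 0.666), ITIH3 (0.64, 0.111) and IGF1 (-0.01, 0.978) missed the limit on adjusted p too. DCX, APCDD1L, FGF23 and GPATCH4 were singled out after their values were seen. Weaker probe sets of DCX had D9 vs. E16 ratios of -0.54 to -0.06, none called. Those of GPATCH4 had ratios of 1.43, called, and -0.06, not called.

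Spread within an age was small for most genes, with a median SD of 0.14 over the 4 D9 livers and 0.16 over the 4 E16 livers. A few genes differed widely between birds of an age. CA4, a carbonic anhydrase, had 9.28, 5.10, 4.96 and 11.02 at D9, against 4.59, 6.08, 4.82 and 4.85 at E16, and was not called, although it passed without D9 replicate 2 (3.33) or 3 (3.38). GIMAP6 had 4.49, 8.10, 4.37 and 7.10 at D9, with 2 birds close to background, against 4.07, 4.42, 4.25 and 4.15 at E16. It was called (1.79, adjusted p = 0.0292) with the spread of all 24 arrays but not with that of the 8 arrays (adjusted p = 0.13). The call was also lost without D9 replicate 2 (1.10) or 4 (1.43) and without E16 replicate 1 (1.74), 3 (1.80) or 4 (1.77). LOC395159 had 7.42, 4.14, 4.06 and 4.21 at D9, against 10.72, 5.21, 4.83 and 11.27 at E16, high in 2 embryos and 1 hatchling. LYG2, a lysozyme, had 11.60, 7.79, 11.58 and 10.65 at D9, against 10.65, 10.61, 7.13 and 10.53 at E16, with 1 low bird at each age. These 4 genes were chosen because they had some of the largest SDs.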

How the data were processed

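Total liver RNA of 4 birds per age was hybridized to 24 Affymetrix Chicken Genome Arrays, 1 bird per array. The authors background corrected, quantile normalized and summarized the scans by RMA, and the deposited values are log2 intensities per probe set. RMA forces the same distribution on every array, so a change shared by most transcripts would not be seen. Arrays give no read depth, and 4 birds per age limit the precision. The submitters' processing notes name limma 3.30.13. Groups followed the sample labels.

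Here limma 3.58.1 (R 4.3.3) fitted 1 mean per age to all 24 arrays, with 18 residual degrees of freedom, and D9 was contrasted with E16 over 38439 probe sets. DEGs had an adjusted p of at most 0.05 (Benjamini and Hochberg) and an absolute log2 ratio of at least 0.75. Symbols came from the platform annotation, in which 27168 probe sets had 1 symbol, 177 several and 11094 none. Of those with 1 symbol, 26853 matched a RefSeq gene ID, and 0 symbols changed. The gene lists and the genes described were chosen with earlier results of these data known. Genes named are the 20 highest and 20 lowest without overlap, marked members of each list and up to 4 further DEGs per list. Other list members given with values were chosen after these were seen. The fit was tested on simulated data.

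Per the study's hybridization design, replicate numbers mark the hybridization day and thus pair the arrays. Deviations of D9 and E16 arrays of the same day correlated at -0.126, -0.018, 0.038 and 0.070 over probe sets, beside -0.094 to 0.096 for 12 pairs of different days. Alternatives were the day as a block, only the 8 arrays, cyclic loess, array weights, a trended robust prior, a level filter, other ratio limits, other choices of probe set and leaving out each array. Leaving out D9 replicate 1 and E18 replicate 2 together, and E18 replicate 2 from D3 vs. E18, was chosen after seeing the data.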

Additional observations from a re-analysis of the deposited data

Results flagged for a closer look

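In 20 of 452 groups of 4 livers (226 genes at 2 ages), 1 liver stood apart from its group by Dixon's criterion. Chance alone flags about 1 group in 20, and no explanation of the single values was tested. At D9, replicate 1 was high for CYP7A1 (10.57, others 8.17 to 8.54) and for LOC395159 (7.42, others 4.06 to 4.21). This is the array that also carries heart transcripts. D9 replicate 3 was low for DIO2 (10.82, others 12.18 to 12.45) and LEAP2 (13.18) and high for CD99 (9.05), and D9 replicate 2 was low for LOC771012 (13.17).

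At E16, replicate 4 was low for FGF19 (5.25, others 7.38 to 7.68), APOA1 (14.54) and PYGL (10.17) and high for BUB1B (9.23) and ELOVL5 (8.18). E16 replicate 3 was low for LYG2 (7.13, others 10.53 to 10.65) and high for CYP2W2 (9.75, others 8.45 to 8.67), PPM1K (10.96) and FADS2 (4.41). E16 replicate 1 was low for SLC1A4 (6.40, others 7.56 to 7.76) and high for COL1A1 (12.34, others 11.43 to 11.46), GLDC (9.01) and AFMID (6.39). E16 replicate 2 was low for ACACA (7.05, others 7.34 to 7.35). In CYP7A1, DIO2, SLC1A4, COL1A1 and CYP2W2 the 4 D9 livers still did not overlap the 4 E16 livers.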

How the results depend on the processing

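The ratio limit moved the counts most. With no limit there were 7470 probe sets (3436 higher and 4034 lower at D9) and 3673 genes (1812 higher and 1861 lower). With a limit of 2 there were 483 probe sets (304 higher and 179 lower) and 273 genes (171 higher and 102 lower). Leaving out 1 array gave 3003 to 3275 probe sets (1438 to 1549 higher, 1505 to 1754 lower) and 1582 to 1718 genes (785 to 851 higher, 758 to 867 lower). Under the other alternatives the counts stayed within 1.5 times, among them 1307 genes with the mean of probe sets, of which 1250 had the same call. With the hybridization day as a replicate block there were 3199 probe sets (1498 higher and 1701 lower) and 1661 genes (817 higher and 844 lower), of which 1656 had the same call, and D3 vs. E18 had 4095 probe sets (4182 without E18 replicate 2, also chosen after seeing the data). Among 354 genes selected by the rule or singled out later, the block changed the call of PCK1 only. PFKFB1 reversed, with 2.71 from its probe set of largest variance. Of 270 of these genes that were DEGs, 223 kept their call under all 18 alternatives and 247 kept it with each array left out. Leaving out D9 replicate 1 and E18 replicate 2 together, an alternative chosen after seeing the data, gave 3062 probe sets and 1590 genes. Levels near background limit what low transcripts can show, and levels near the top of the range, such as ALB, may be compressed.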

Other observations

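A handful of genes stood at the same level at both ends of the series and elsewhere in between, so that D9 vs. E16 does not show them. Among the 10119 genes not called and with age means at D9 and E16 within 0.5 of each other, 4 had a mean at least 2 above both ends at E18, E20, D1 or D3 and 1 lay at least 2 below both. Their values are means over 4 livers. FST, follistatin, which binds activins, averaged 7.39 at D9 and 7.03 at E16, but 9.65 at E20 and 9.36 at D1. TENM2 averaged 6.10 at D9 and 5.68 at E16, but 8.73 at E20, and LOC424919 averaged 6.40 at D9 and 6.36 at E16, but 8.43 at E20. REG1A, a secreted lectin of the pancreas, was near background at D9 (3.88) and E16 (3.79), and its mean of 5.99 at E20 had an SD of 2.52. TNNC1, a troponin of slow and heart muscle, ran the other way, with 9.24 at D9 and 9.31 at E16, but 6.75 at E20 and 6.64 at D1. These genes were chosen after their values were seen.

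Among genes that lie next to each other on the chicken assembly of RefSeq (used for order only), both were DEGs in 293 pairs, of which 199 had the same direction and 94 the opposite one. The total of neighbouring pairs was not counted, and 12.8% of all genes were DEGs. These counts therefore do not show whether neighbours changed together, which was not tested. ENPEP, an aminopeptidase, and its neighbour ELOVL6 rose by 5.12 and 5.21, and the inhibitors CDKN2A and CDKN2B by 3.38 and 8.34. CPT1A and FADS1, also neighbours, parted, at -2.48 and 4.34, as did AvBD8 and AvBD7, at 6.92 and -2.03. Neighbours can share probe set annotation errors, and this was not tested. Of the probe sets called in D9 vs. E16, 582 do not carry exactly 1 gene symbol and are not described here.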
